A study of Rattus norvegicus with 3 samples.

Results

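Ptcra encodes the pre-T cell receptor alpha chain. Its RNA was followed here through every labelled cell type of rat thymus, with most attention to the early thymocyte stages labelled DN and DP-P and to the medullary epithelial cells labelled TEC:mTEC2. The gene was chosen because earlier results of these data showed its RNA in both places, so its levels below are a description. It is 1 of 34034 features counted in both libraries. Its members of interest are 390 DN cells, 848 DP-P cells and the 23 of 61 TEC:mTEC2 cells that held at least 1 Ptcra transcript.

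Thymi came from Lewis rats, an inbred strain, aged 8 weeks, and the labels name no treatment or genetic change. One droplet library held thymocytes released with collagenase D, and the other held stromal cells depleted of cells with CD45, the surface protein of blood-derived cells, by magnetic beads and flow sorting. The labels do not say how many rats gave cells or whether cells were pooled. Each group had 1 sample, so no test was run, no p-value is given and no difference has a replicate check. A spatial section of the series was not used, because its tables hold no count of single genes.

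The pre-T cell receptor alpha chain pairs with a newly made T cell receptor beta chain and the CD3 signalling chains. This pre-receptor signals without a known ligand and marks thymocytes whose beta chain is in frame, a checkpoint called beta-selection, after which cells divide and turn on CD4 and CD8. Once the rearranged alpha chain is made, it takes the place of the pre-T alpha chain. Notch signals and E proteins, which bind DNA at E-box motifs, are known to drive Ptcra in thymocytes, and Ptcra RNA is also known from plasmacytoid dendritic cells. Medullary epithelial cells with AIRE are known to transcribe many genes of other tissues.

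The stretch just upstream of Ptcra is shown because it holds a pair of E-box motifs. It covers the 250 bases before the annotated start on the plus strand of chromosome 9, chr9:21716272-21716521, taken from RefSeq on build GRCr8. The submitters' processing notes name mRatBN7.2 for the count files, and no coordinate was carried between the builds. Capitals mark CAGCTG, an E-box hexamer that reads the same on both strands.

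Ptcra: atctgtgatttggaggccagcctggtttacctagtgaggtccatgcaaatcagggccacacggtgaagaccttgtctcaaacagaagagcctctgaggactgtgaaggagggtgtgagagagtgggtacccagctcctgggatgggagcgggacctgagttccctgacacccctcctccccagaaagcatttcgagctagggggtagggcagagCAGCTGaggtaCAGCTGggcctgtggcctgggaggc

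The hexamer occurred at 36 and 25 bases before the start, with 5 bases between the copies. Over the same window, 11.97% of 33469 rat promoters held at least 1 CAGCTG and 1.04% held at least 2. The wider E-box motif CANNTG, which includes CAGCTG, had the same 2 matches in Ptcra. It occurred at least 1 time in 65.5% of promoters and at least 2 times in 30.8%. TGGGAA, a core associated with the Notch cofactor RBPJ, had no match on either strand in this window and was present in 22.1% of promoters. A match is a description of letters and not a measured site.

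The thymocyte library held 8574 barcodes, of which 8546 carried a label, and the labelled cells held 64440495 transcripts counted as UMIs (unique molecular identifiers, 1 for each RNA molecule caught) with a median of 3994 per cell. The stromal library held 16160 barcodes, 13226 of them labelled, and the labelled cells held 131624350 UMIs with a median of 9087.5. The libraries shared 38 barcode sequences, none among DN cells or TEC:mTEC2 cells with Ptcra and 4 among DP-P cells. Levels are UMIs per 1000000 UMIs of a label (CPM). Intervals are 95% intervals for counting error only, exact Poisson for levels, exact Clopper-Pearson for shares and exact conditional binomial for ratios.

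In the thymocyte library, Ptcra was at a high plateau from DN through DP, and among labels of at least 20 cells it was lower in every label after DP. DN cells held 2943 Ptcra UMIs, a level of 271.7 CPM (262.0 to 281.7). DP-P cells, of which 99.1% held a UMI of the division gene Mki67, held 4531 UMIs at 264.9 CPM (257.2 to 272.7). Cells labelled gdT held 672 UMIs at 246.9 CPM (228.6 to 266.3). DP cells, of which 2.92% held Mki67, held 3924 UMIs at 207.5 CPM (201.0 to 214.0). Of the 12302 Ptcra UMIs of the library, 23.9% were in DN, 36.8% in DP-P, 31.9% in DP and 5.46% in gdT cells.

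Within the plateau, neighbouring labels differed little. The ratio of DN to DP-P was 1.03 (0.979 to 1.07) and that of DP-P to gdT was 1.07 (0.989 to 1.17), both with 1 inside the interval. The gdT label stood above DP by a ratio of 1.19 (1.09 to 1.29), and DN stood above DP by 1.31 (1.25 to 1.37). The order of DN and DP-P depended on which labels were used. With the authors' first clusters in place of the projected labels, the DN cluster was at 238.4 CPM and the DP-P clusters at 293.3 CPM, a ratio of 0.813.

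The step down came between DP and Pre DP-sig. The Pre DP-sig cells held 24 UMIs in 325 cells at 19.995 CPM (12.8 to 29.8), which put DP 10.4-fold higher (6.96 to 16.2). The 16 labels from Pre DP-sig to mature T cells together held 124 UMIs in 1776 cells, a level of 10.1 CPM (8.41 to 12.1). Mature CD4-2 cells were the highest of them at 25.5 CPM (17.5 to 36.0), with 32 UMIs in 18 of 127 cells. No Ptcra UMI was found in 133 Immature CD4-1 cells, with an upper interval limit of 4.81 CPM, or in 55 Pre-Treg cells, with a limit of 8.25 CPM. From Mature CD4-2 downward, every neighbouring pair in the order had an interval that held 1.

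**Figure D1:**
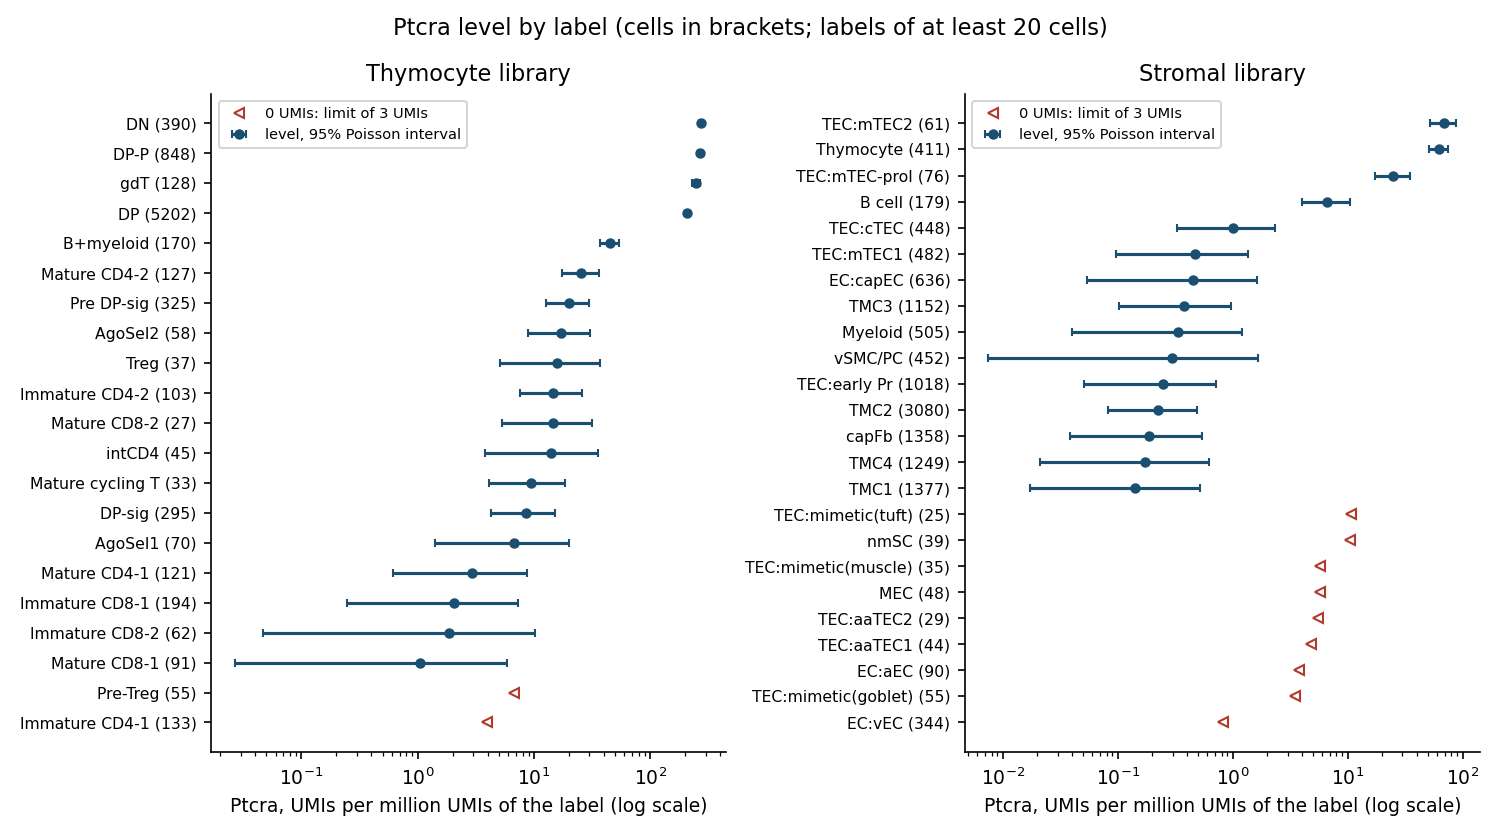
Ptcra level by label in the thymocyte library (left) and the stromal library (right), in CPM on a log axis, for labels of at least 20 cells. Points are levels with 95% Poisson intervals, and open triangles mark labels with 0 UMIs at the level that 3 UMIs would give. DN, DP-P, gdT and DP lie between 207.5 and 271.7 CPM, and TEC:mTEC2 leads the stromal library at 68.6 CPM.

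Most cells of the early labels held the transcript. Ptcra was found in 370 of 390 DN cells (94.9%, 92.2 to 96.8), with a median of 6 UMIs per cell and a highest value of 45. It was found in 774 of 848 DP-P cells (91.3%), with a median of 4 and a highest value of 31. The gdT share was 79.7%, with a median of 4.5, and the DP share was 45.7%, with a median of 0 and a highest value of 17. Depth differed between these labels, with a median of 23190 UMIs in DN, 15439 in DP-P, 19803.5 in gdT and 3205.5 in DP. With every cell thinned to 3000 UMIs, the expected shares were 56.1% in DN, 52.5% in DP-P, 50.8% in gdT and 42.9% in DP, which left out 2, 12, 1 and 2186 shallower cells. Immature CD4-1 cells, with no Ptcra, had a median of 5361 UMIs, above that of DP.

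**Figure D2:**
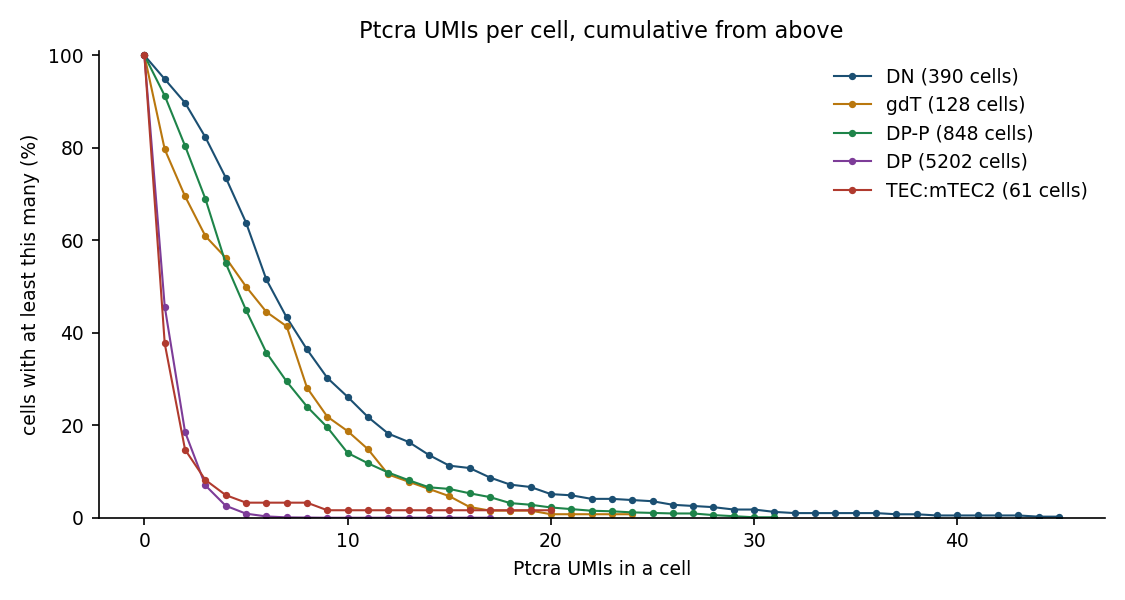
Share of cells (y, percent) with at least a given number of Ptcra UMIs (x) for DN, gdT, DP-P, DP and TEC:mTEC2 cells, without thinning. The DN curve lies highest and reaches 45 UMIs, while TEC:mTEC2 follows DP at 1 to 4 UMIs and has a single cell at 20.

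The DN label was checked against the coreceptors that name it. A Cd8a UMI was present in 376 of 390 DN cells and a Cd4 UMI in 290, and only 12 cells (3.08%, 1.60 to 5.31) lacked both. A Mki67 UMI, from a gene of dividing cells, was present in 375. These transcripts go against a strict reading of double negative, so DN is used here as the authors' label and not as a statement on surface proteins. The gdT label could not be checked with gamma or delta constant genes, which are not among the feature names used here. Of its 128 cells, 47 (36.7%) held neither Cd4 nor Cd8a, and 111 were first clustered as DN. Of 9 early DN genes tested, 8 were higher in gdT than in DN cells. So gdT is also used only as the authors' label and not as a statement on the receptor.

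Ptcra was not even within the DN label. The 192 DN cells that the authors' first clustering also called DN were at 239.0 CPM (228.3 to 250.1), and the 151 DN cells first placed in cluster DP-P2 were at 356.0 CPM (331.0 to 382.4). DN cells with a Cd4 UMI were at 309.5 CPM (296.9 to 322.5), against 193.4 CPM (179.2 to 208.5) in the 100 cells without one. Depth moved with these splits, with medians of 37879 and 11832 UMIs in the DN and DP-P2 clusters and of 18549 and 36216 UMIs with and without Cd4, and its part in the levels was not tested. The 14 DN cells without a Cd8a UMI were at 51.5 CPM (32.6 to 77.2), at a median depth of 31294 UMIs, above that of the label. DN cells with a UMI of Rag1, the recombinase that cuts receptor genes, were at 302.8 CPM (291.4 to 314.6), and those without were at 139.5 CPM (123.9 to 156.6). Cells with a Kit UMI, a receptor of the earliest DN cells, were lower in Ptcra, at 213.3 against 297.0 CPM. Median depths were 20940 and 36414 UMIs with and without Rag1, and 44551 and 18511 UMIs with and without Kit. The part of depth in these splits was not tested either. In DN cells, then, Ptcra was higher in cells with transcripts of Cd4, Cd8a and Rag1.

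The same gradient was present among DP-P cells. The 199 that were first clustered as DN were at 241.4 CPM (230.7 to 252.5), near the 239.0 CPM of DN-labelled cells of that cluster. The 521 in cluster DP-P1 were at 269.9 CPM (258.5 to 281.8), and the 123 in DP-P3 at 360.2 CPM (330.0 to 392.5). DP-P cells with a Cd4 UMI were at 280.7 CPM and those without at 194.9 CPM. Median depths were 35471, 13834 and 10428 UMIs in the 3 clusters, and 15029 and 25313 UMIs with and without Cd4. The part of depth was not tested. Across both labels, the first cluster separated Ptcra levels more than the projected label did.

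Other genes of the checkpoint were compared between DN and DP-P by size, calling a gene at a ratio of at least 2-fold with at least 20 UMIs in the pair. Over 12481 genes tested, 3.51% were higher in DN and 4.23% were lower (7.74% in either direction), with a median log2 ratio of -0.01. Totals without mitochondrial, ribosomal protein and haemoglobin genes turned 438 higher and 528 lower genes into 553 and 423. Of 14 receptor complex and signalling genes, 1 was higher and none lower, which is near the 7.74% over all genes. Cd3e was at 489.1 CPM in DN and 498.5 CPM in DP-P, and Cd3g at 1946 and 2026 CPM. The gene past the limit was Syk, a kinase that can act beside ZAP-70 at the pre-receptor, with 7.75 CPM in DN and 3.80 CPM in DP-P (ratio 2.04, 1.46 to 2.87). Lck, the kinase that starts receptor signalling, was at 261.9 and 319.4 CPM.

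Of 15 genes in the list of Notch, E protein and T-lineage factors, none was called between DN and DP-P. Over all genes tested 7.74% were called, and a list this short cannot be told apart from that share. The median log2 ratio of the list was 0.07. Hes1, a Notch target, was at 84.7 CPM in DN and 61.7 CPM in DP-P (ratio 1.37, 1.26 to 1.502). Tcf12, which encodes the E protein HEB, was at 903.9 and 1205 CPM, and Tcf3, which encodes E2A, at 42.5 and 38.8 CPM. None of the 3 rearrangement genes was called, and Rag1 was at 298.4 and 366.7 CPM.

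Most genes that respond to beta-selection were not called between DN and DP-P, where 7.74% of all genes were called. The cell cycle list was lower in DN as a sum. Of 15 response genes tested, 2 were higher in DN, Ccnd2 (cyclin D2, ratio 4.08, 3.05 to 5.52) and Bcl2a1 (a survival factor, ratio 3.30, 2.15 to 5.16), and none was lower. Myc, a growth regulator, had a ratio of 1.62 and Cd5, a brake on receptor signals, 0.512. The cell cycle list summed to 2880 CPM in DN and 5852 CPM in DP-P, a ratio of 0.492 (0.486 to 0.498). Its median log2 ratio was -0.72. Over all genes 4.23% were lower in DN, and of the 14 cell cycle genes none was higher and 4 were lower. They were Top2a (0.258), Ube2c (0.331), Cdk1 (0.390) and Mki67 (0.404), all of late division, while Mcm2, a replication licensing gene, had a ratio of 1.83. Of 6 early DN genes tested, 1 was lower, Il2ra (CD25), at 3.51 against 8.77 CPM, and none of 8 DP genes or 4 mature thymocyte genes was called.

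The gdT and DN labels, also near each other in Ptcra, differed in more genes. Of 11597 genes tested, 13.9% were higher in gdT and 5.1% were lower. Of 9 early DN genes, 8 were higher in gdT and none lower. Il7r, the interleukin 7 receptor of early progenitors, was at 243.2 CPM in gdT and 15.1 CPM in DN. Kit was at 47.4 against 14.3 CPM, and Mef2c, a factor of progenitors, at 22.4 against 0.554 CPM. Of the Notch and factor list, 5 of 15 were higher, among them Notch1 at 198.0 against 57.7 CPM and Hes1 at 241.0 against 84.7 CPM. Cell cycle genes were lower in 10 of 14, and of 8 DP genes 4 were lower and 1 was higher, with Cd8a at 126.4 against 702.3 CPM. Of 15 beta-selection response genes 3 were higher and 5 lower, and of 14 receptor and signalling genes 2 were higher and none lower. Ptcra had a gdT to DN ratio of 0.909 (0.834 to 0.988). First clustering had placed 111 of the 128 gdT cells in cluster DN.

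From DP-P to DP, where Ptcra was lower by a ratio of 1.28 (1.22 to 1.33), many more genes moved. Of 13423 genes tested, 14.6% were higher in DP-P and 24.3% were lower. All 14 cell cycle genes were higher in DP-P, from 2.72-fold (Mcm2) to 278.7-fold (Top2a). Hes1 was 19.1-fold higher, at 61.7 against 3.22 CPM, Nrarp, a Notch feedback gene, 3.83-fold and Notch1 3.05-fold. Tcf3 was 2.12-fold higher in DP-P, and Tcf12 was lower, at 1205 against 3604 CPM, so that 4 of the 15 Notch, E protein and T-lineage genes were higher and 2 lower. All 3 rearrangement genes were lower in DP-P, with Rag1 at 366.7 against 1952 CPM. Of 8 DP genes 6 were lower, and of 14 receptor and signalling genes 7 were lower and none higher. Of 15 beta-selection response genes 6 were higher and 2 lower, Myc and Ccnd2 among the higher.

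**Figure D3:**
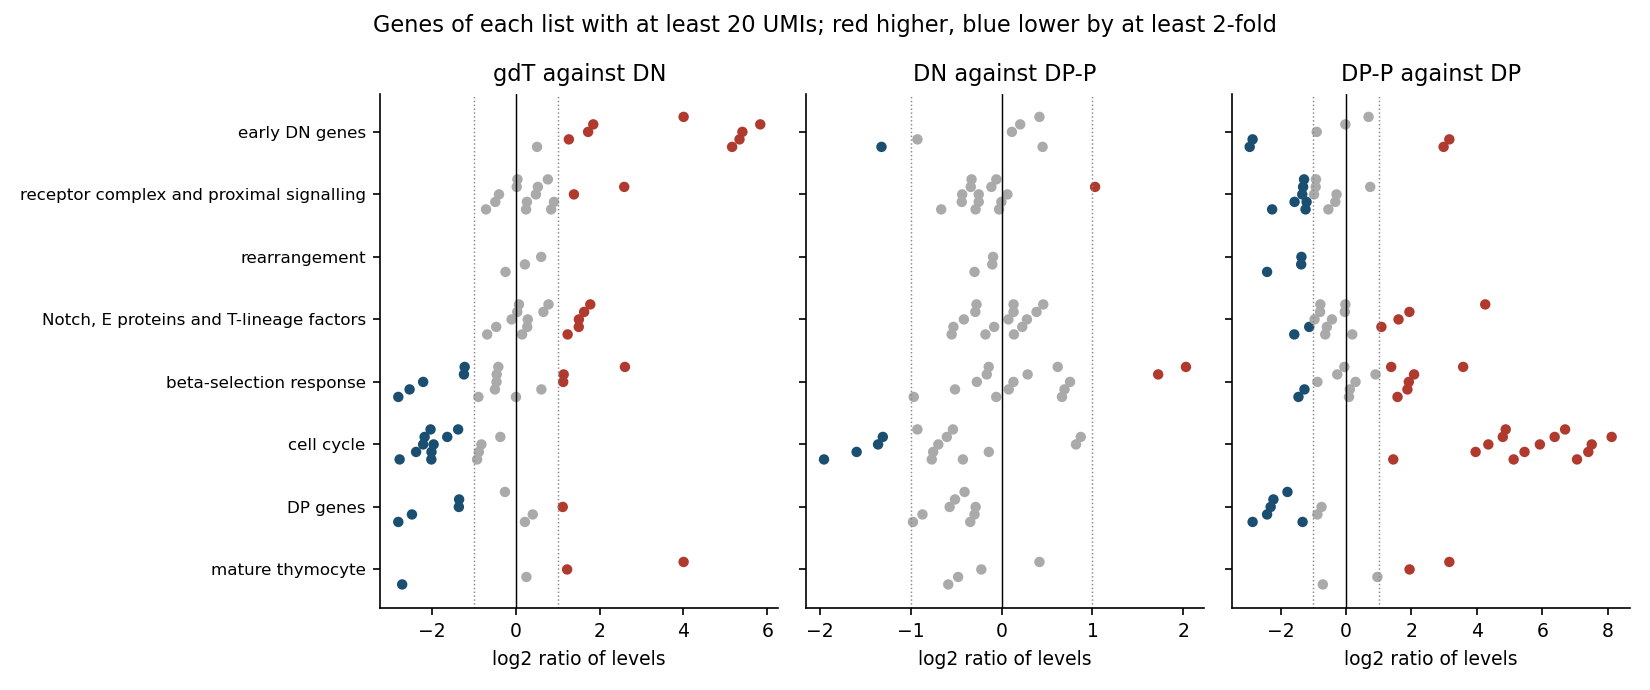
Log2 ratio of levels for each list gene with at least 20 UMIs in the pair, for gdT against DN, DN against DP-P and DP-P against DP, by gene list. Red points are higher and blue points lower by at least 2-fold (dotted lines), and the scales of the 3 panels differ. Few genes pass the limit between DN and DP-P, and all 14 cell cycle genes do between DP-P and DP.

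The genes whose levels most resembled Ptcra over the 21 labels of at least 20 cells were ranked among 9893 genes with at least 200 UMIs, by Pearson r of log2(CPM + 1). The values are descriptions, since labels share a library and differ in depth. RT1-N3, a class I gene of the rat major histocompatibility complex, led with r = 0.913, at 311.2 CPM in DN, 334.2 CPM in DP-P, 177.3 CPM in DP and 41.7 CPM in Pre DP-sig. Crybg3 (0.906), RT1-O1 (0.890), Oaf (0.890) and Tap2 (0.884), which encodes a peptide transporter subunit, followed. Among genes looked up for a known role, Rag2, the second recombinase gene, ranked 7 with r = 0.850. Notch3 ranked 12 (0.825), Hes1 16 (0.819) and Rag1 34 (0.785). Others ranked far lower, with Notch1 at 1951 (0.391), Tcf12 at 2594 (0.314) and Tcf3 at 6281 (-0.036). Lck ranked 7175 (-0.136) and Cd3e 7844 (-0.224). Some class I RT1 genes are close copies of each other, so the counting may have split their reads.

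In the stromal library, TEC:mTEC2 had the highest Ptcra level of all 24 labels of at least 20 cells. Its 61 cells held 60 UMIs, a level of 68.6 CPM (52.3 to 88.2), and made up 0.461% of labelled cells with 23.8% of the Ptcra UMIs. Thymocytes caught in that library followed with 106 UMIs in 411 cells at 61.8 CPM (50.6 to 74.7), a ratio of 1.11 (0.795 to 1.54) with 1 inside the interval. TEC:mTEC-prol, labelled as dividing medullary epithelium, was at 24.9 CPM (17.2 to 34.8), and TEC:mTEC2 stood 2.76-fold above it (1.78 to 4.33). One TEC:mTEC-prol cell carried 22 of its 34 UMIs, and without it the label was at 8.96 CPM (4.63 to 15.6). That cell held only 2 UMIs of the cell cycle list among 27215, so its own transcripts do not show division. The other epithelial labels, without these and without TEC:mTEC-prol, together held 11 UMIs in 2158 cells at 0.413 CPM (0.206 to 0.739), which put TEC:mTEC2 166.0-fold higher (86.5 to 350.2). Without the cell with most Ptcra UMIs, TEC:mTEC2 was at 46.9 CPM, below the thymocytes. The libraries were made from different preparations, so these levels are not set against those of DN cells.

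The share of TEC:mTEC2 cells with a Ptcra UMI was 37.7% (25.6 to 51.0) at a median depth of 13378 UMIs. The labels TMC1 to TMC4 and capFb, counted here as fibroblasts, which should lack the gene, held it in 17 of 8216 cells (0.207%) at a median depth of 9006.5, never above 1 UMI per cell. With cells of at least 3000 UMIs thinned to that depth, the expected shares were 15.3% in TEC:mTEC2, 14.7% in stromal-library thymocytes and 0.0619% in fibroblasts. This left out 6, 253 and 161 shallower cells, so the thymocyte share covers only 158 of 411 cells. Endothelial cells labelled EC:vEC held no Ptcra UMI in 344 cells, with an upper interval limit of 1.07% for the share. No background from empty droplets was measured.

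The TEC:mTEC2 label was checked against epithelial and blood cell markers. All 21 epithelial genes of the marker list were detected in the label, and every cell held at least 2 epithelial UMIs, with a median of 73. The epithelial list summed to 8492 CPM, below TEC:mTEC1 (17285 CPM), TEC:mTEC-prol (15617 CPM) and cTEC (13733 CPM). The pan-haematopoietic list summed to 537.0 CPM, against 245.0 CPM in TEC:mTEC-prol, 39.5 CPM in TEC:mTEC1 and 18.6 CPM in cTEC. The macrophage and monocyte list summed to 383.9 CPM, against 139.0, 20.7 and 12.6 CPM in the same labels. Every TEC:mTEC2 cell thus held epithelial UMIs, but some held few. One cell of 11541 UMIs held 2, with no Epcam, Krt8 or Aire, and 1 cell with Ptcra held 3, with no Epcam or Krt8. An epithelial UMI was also present in 1402 of 3080 TMC2 fibroblasts, so a low count does not show an epithelial cell. Both blood cell lists were higher in TEC:mTEC2 than in the epithelial labels compared, and their part in the Ptcra level was not tested. Among the 23 cells with Ptcra, 21 held Epcam, the epithelial adhesion molecule, 21 held Krt8, a keratin, and 20 held Aire, the regulator that opens tissue genes to transcription. Among the 38 without Ptcra, 29 held Epcam, 33 held Krt8 and 20 held Aire. The cells with Ptcra were deeper, with a median of 15130 against 10675 UMIs, and the part of depth in these shares was not tested.

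Ptcra was low in most of these cells. One UMI was found in 14 of the 23 cells and 2 to 4 in 7, and the last cells had 8 and 20. The cell with 20 held 21619 UMIs, of which 34 were Krt8, 9 Epcam, 21 Aire and 1758 class II, together with 17 of Lck and 1 of Siglech. It had no UMI of Cd3d, Cd3e, Cd3g, Cd8a, Rag1 or Ptprc. The cell with 8 Ptcra UMIs held 28344 UMIs, with 127 Krt8, 34 Epcam and 28 Aire, and 1 UMI of the other thymocyte genes.

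Thymocyte RNA was measured in these cells with 9 genes that thymocytes carry, Cd3d, Cd3e, Cd3g, Cd8a, Cd8b, Rag1, Lck, Lat and Ptprc. Of the 23 cells with Ptcra, 11 held no UMI of any of the 9, and 21 held none of Cd3d, Cd3e and Cd3g. Rag1, Rag2 and Dntt were at 0 in all 61 TEC:mTEC2 cells. One cell held 23 UMIs of Ptprc, which encodes CD45, with 2 of Ptcra, and another held 12 CD3 UMIs with 1 of Ptcra. Of the 74 stromal-library thymocytes with Ptcra, 73 held a CD3 UMI and 70 a Rag1 UMI. Of the 337 without Ptcra, 308 held a CD3 UMI and 214 a Rag1 UMI. These genes mark thymocytes, so their presence follows from the label and does not test the source of Ptcra in TEC:mTEC2.

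The balance of Ptcra to these genes was higher in the label than in thymocytes. The part was chosen for its Ptcra RNA, so this is a description, and the source of the RNA was not tested. TEC:mTEC2 held 56.6 Ptcra UMIs per 100 UMIs of the 9 genes (40.5 to 78.4), from 60 and 106 UMIs. TEC:mTEC-prol held 125.9 (73.7 to 217.0), from 34 and 27, and 44.4 (20.5 to 90.7) without the cell that carried 22 of its Ptcra UMIs. Stromal-library thymocytes held 0.882 (0.722 to 1.07), fibroblasts 2.43, DN cells 4.51 and DP-P cells 4.02. TEC:mTEC2 was thus 64.1-fold above the thymocytes of its own library (45.9 to 88.9). DN and DP-P cells came from the other preparation, so no ratio is given against them. Without the cell with most Ptcra UMIs, TEC:mTEC2 held 0.449 Ptcra UMIs per UMI of the 9 genes. In the 53 TEC:mTEC2 cells with fewer than 3 UMIs of the 9 genes, Ptcra was at 47.1 CPM, and in the 53 with no CD3 UMI it was at 79.6 CPM.

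**Figure D4:**
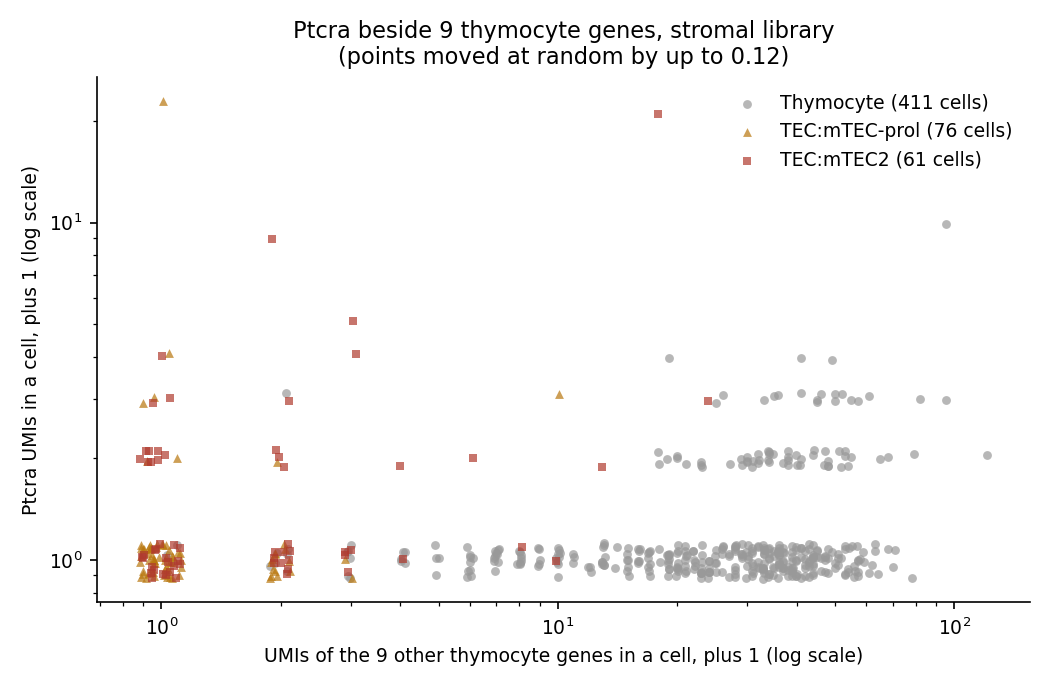
Ptcra UMIs (y) against UMIs of the 9 other thymocyte genes (x) in each cell labelled TEC:mTEC2, TEC:mTEC-prol or Thymocyte in the stromal library, both plus 1 on log axes, with points spread slightly at random. Thymocytes with Ptcra lie mostly to the right, around a median of 37 UMIs of the 9 genes, and 11 of 23 TEC:mTEC2 cells and 6 of 8 TEC:mTEC-prol cells with Ptcra lie at 0.

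Gene lists were then compared between TEC:mTEC2 cells with and without Ptcra, which the gene itself defines, over summed UMIs. Of 7184 genes tested, 9.2% were higher and 15.1% lower in the cells with Ptcra by at least 2-fold. The summed epithelial list was at 8175 CPM with Ptcra and 8726 CPM without, a ratio of 0.937 (0.894 to 0.981). Of its 21 genes, 2 were higher, Aire at 692.0 against 303.6 CPM and Pax1, a factor of thymic epithelium, at 70.0 against 15.9 CPM. Lower were 5 genes, Krt15 (1 against 91 UMIs), Tp63 (2 against 48 UMIs), Ehf (1 against 50 UMIs), Cldn4 and Cdh1. Epcam (581.6 and 557.7 CPM), Krt8 and Krt18 were not called.

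Class II genes, which present antigen to CD4 T cells, were the list with the largest UMI sum. It was at 46191 CPM in the cells with Ptcra and 23565 CPM in those without, a ratio of 1.96 (1.91 to 2.01). Of 8 genes tested, 4 were higher (RT1-Bb, RT1-Da, RT1-DMa and RT1-DMb), none was lower, and the others had ratios from 1.30 to 1.99. RT1-DMa and RT1-DMb had equal summed counts of 69 and 35 UMIs. Of 8 genes tested that are shared by Aire-bearing epithelium and activated dendritic cells, Cd86, a costimulator, was higher (58 against 18 UMIs, 28 of the 58 in 1 cell), and Ccl17 and Ccr7 were lower.

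Higher calls in the lymphoid lists came mostly from single cells. In the 9-gene list 2 genes had enough UMIs, and both were higher, Lck with 17 of its 20 UMIs in 1 cell and Ptprc with 23 of 28 in another. Their list summed to 185.8 CPM with Ptcra and 73.4 CPM without. Of 4 early DN genes tested, Il2ra was higher, with 79 of 80 UMIs in 1 cell, and Il7r and Mpzl2 were lower. Of the 6 pan-haematopoietic genes, 4 were tested and 2 were higher, Ptprc and Laptm5, the latter with all 38 UMIs in 1 cell. No rearrangement gene could be tested. Of 4 receptor complex genes tested, Lck was higher and Syk lower, and of 3 mature thymocyte genes Il7r and Ccr7 were lower. Of the Notch and factor list, 7 were tested, none was higher and 3 were lower (Notch1, Tcf3 and Runx1).

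Dendritic markers were few in number among the genes tested, so their counts stand beside the 9.2% of all genes that were higher. Of 11 conventional dendritic genes 3 were tested and none was called, and Flt3, Itgax, Xcr1, Clec9a, Clec10a and Itgam were at 0 in all 61 cells. The conventional dendritic list summed to 75 UMIs in the cells with Ptcra and 73 in those without, a ratio of 1.39 (0.996 to 1.95). Of 10 plasmacytoid dendritic genes 6 were tested, none was higher and Tcf4 was lower, at 115.8 against 283.8 CPM. Siglech, the defining marker of that type, had 3 UMIs in 2 of the 23 cells and none in the others. The summed plasmacytoid list was at 724.3 CPM with Ptcra and 837.5 CPM without. It summed to 1409 CPM in TMC2 fibroblasts, 1036 CPM in TEC:mTEC1 and 360.8 CPM in Myeloid cells, so the sum does not measure dendritic cells here. None of the B cell genes (2 tested) or macrophage genes (3 tested) was called, and of 4 cell cycle genes 1 was higher and 1 lower.

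The 5 genes that led in the cells with Ptcra, among those with a UMI in at least 12 of the 23, were Prg2, Il12a, Tmem64, Calca and Hagh. The filter used only the cells with Ptcra, and the genes were picked by their ratio. High ratios therefore follow from the choice, the intervals do not allow for it, and the values are descriptions. Prg2, an eosinophil granule protein, had 475 against 6 UMIs, present in 14 of 23 and 2 of 38 cells (107.4-fold, 49.0 to 294.2). Its highest cells held 245 and 115 UMIs, and without both the ratio was 30.7. Il12a, an interleukin subunit, had 47 against 5 UMIs, with 25 in 1 cell, and a ratio of 4.27 without its highest 2 cells. Calca, the calcitonin gene, had 207 against 37 UMIs in 14 of 23 and 11 of 38 cells, a ratio of 7.59 that was 3.62 without its highest 2 cells. Tmem64 and Hagh had ratios of 8.68 and 7.06.

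Over all epithelial labels, Ptcra was higher in cells with Aire UMIs than in cells without. The 4 groups that follow came from 13, 5, 2 and 2 labels, so Aire cannot be told apart from label. It was at 0.615 CPM (0.358 to 0.984) in 2226 cells with no Aire UMI and at 17.2 CPM (7.41 to 33.8) in 34 cells with 1 to 4. It was at 64.7 CPM (31.0 to 119.0) in 9 cells with 5 to 9, and at 116.1 CPM (90.5 to 146.7) in 26 cells with at least 10. In that last group 42 of the 70 Ptcra UMIs lay in 2 cells, and without them the level was 50.5 CPM (33.6 to 73.0), under that of the group before it. The shares of cells with Ptcra were 0.494%, 23.5%, 44.4% and 53.8%, and after thinning to 3000 UMIs 0.156%, 10.0%, 17.7% and 20.7%. Thinning left out 94, 6, 0 and 0 shallower cells. Median depths were 11304, 10147.5, 16518 and 23600 UMIs, so cells with more Aire UMIs were mostly deeper, and the part of depth was not tested. Within TEC:mTEC2, the 21 cells with no Aire UMI were at 15.8 CPM (3.25 to 46.05) and the 40 with Aire at 83.2 CPM (63.0 to 107.8). Without the cell with 20 Ptcra UMIs, those with Aire were at 55.8 CPM (39.3 to 76.9), and the intervals overlapped. Their median depths were 7652 UMIs without Aire and 17096 with it.

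**Figure D5:**
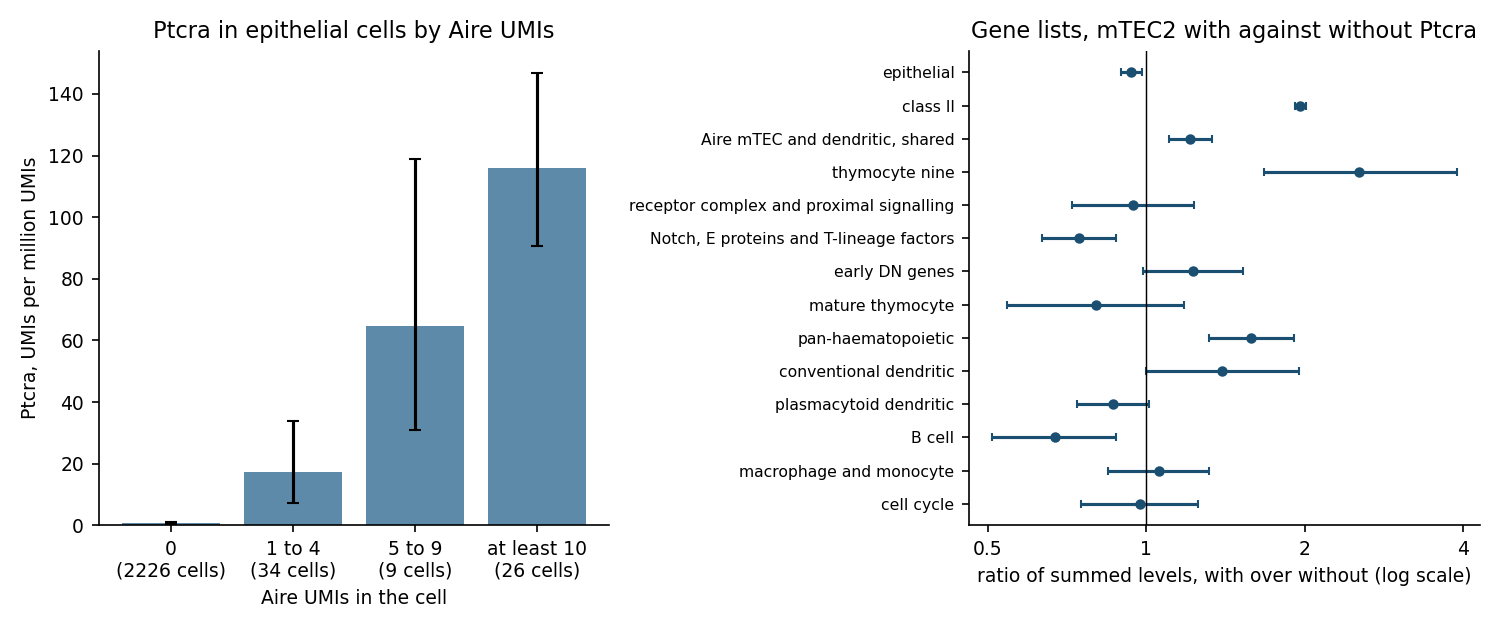
Left, Ptcra level in epithelial cells grouped by their Aire UMIs, as bars with 95% Poisson intervals. Right, ratio of each list's summed level in TEC:mTEC2 cells with Ptcra over those without, with exact intervals for counting error on a log axis. Ptcra is at 0.615 CPM with no Aire UMI and at 116.1 CPM in the last group, which is at 50.5 CPM without the 2 cells with most Ptcra UMIs, and class II lies at 1.96 while the epithelial list lies at 0.937.

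Other stromal-library cells with Ptcra differed in how much thymocyte RNA they held. Of 8 TEC:mTEC-prol cells with it, all lacked CD3 UMIs, 6 lacked all 9 thymocyte genes, and 6 held Aire. The cTEC cell with Ptcra and both TEC:mTEC1 cells held 27 to 57 UMIs of the 9 genes, and 3 TEC:early Pr cells held 0 to 48. The 9 cells labelled B cell held 7 to 110. The gene beside Ptcra in the annotation, Cnpy3, had 13 UMIs in TEC:mTEC2 cells with Ptcra and 13 in those without, and C9h6orf226 on the other side had none.

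A second set of cells outside the thymocyte stages held Ptcra in the thymocyte library. Among 170 cells labelled B+myeloid, 8 held at least 10 UMIs of Siglech, a set chosen after values were seen. Their Ptcra UMIs were 37, 15, 5, 3, 3, 1, 0 and 0, a level of 306.6 CPM (236.1 to 391.6). The 161 cells of the label with no Siglech were at 19.9 CPM (14.4 to 26.9), and the ratio was 15.4 (10.3 to 23.2). The 8 cells held 42 to 180 UMIs of Tcf4, a plasmacytoid dendritic regulator. They also held 1 to 66 UMIs of Cd3g but 0 to 16 of Cd3d and Cd3e, and 1 Rag1 UMI in all. The cell with 37 Ptcra UMIs held 66 of Cd3g and none of Cd3d or Cd3e.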

How the data were processed

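Single cells of rat thymus were measured in 2 droplet libraries, thymocytes and CD45-depleted stroma, with 1 sample each. The deposited matrices hold raw UMI counts per gene and cell, and per the file headers the authors made them with Cell Ranger 8.0.0. The submitters' processing notes also name Seurat 5.3.0 and the build mRatBN7.2. The authors' deposited cell tables give each cell's label (the projected label, otherwise the first cluster) and its percent of mitochondrial UMIs. That percent counts the 2 mitochondrial ribosomal RNA genes only. Depths and shared barcodes are given with the results.

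From the counts, UMIs were summed per label and divided by the label's total, giving CPM. Intervals are exact at 95% and cover counting error only, since each group had 1 sample. A gene was called at a ratio of at least 2 with at least 20 UMIs in the groups compared, and a group under 3 UMIs was set to that floor. Thinning gives the expected share of cells with a UMI at 1000 or 3000 UMIs. Doublets were not called or removed. The calling script was tested on simulated data.

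The members and gene lists were chosen with earlier results of these data known. Named genes were, of each list, those with the 4 largest ratios, the 2 with most UMIs and any at 0. Added to these were the 5 most like Ptcra over labels and the 5 with the largest ratio in TEC:mTEC2 cells with Ptcra, among genes of 20 UMIs or more found in 12 or more of the 23 cells. Not every gene the rule covers is printed, and some genes known for a role were named after values were seen. Of 34034 feature names, 29433 matched a RefSeq symbol, and all 159 list genes were measured. Computing used pandas 2.3.3, SciPy 1.17.1 and NumPy 2.4.6 under Python 3.11.15, and figures used matplotlib 3.10.9. Alternatives changed the cell filters, labels, totals, thinning, minimum UMIs and fold. The spatial section was not used.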

Additional observations from a re-analysis of the deposited data

Results flagged for a closer look

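Ptcra was also present in stromal-library barcodes to which the authors gave no label, data that no comparison above uses. These 2934 barcodes held 35 Ptcra UMIs in 20 barcodes, a level of 4.04 CPM (2.81 to 5.62), against 1.91 CPM over all labelled stromal cells. One barcode with 15 Ptcra UMIs also held 301 epithelial UMIs and 29 of Aire and none of the 9 thymocyte genes, and without it the level was 2.32 CPM. Of the 20 barcodes, 12 had no UMI of the 9 thymocyte genes and 9 had at least 10 epithelial UMIs.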

How the results depend on the processing

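No paired analysis was possible because 1 sample stood for each library. Of 69 alternative values over 15 results, 39 moved by less than their counting interval, or by less than 1.5 times for gene counts, and 30 moved by more. With the first clusters as labels, DN was at 238.4 CPM with a share of 91.8%, DP-P was at 293.3 CPM with 88.6%, and their ratio was 0.813. No first cluster bears the TEC:mTEC2 name. TEC-d, which holds 57 of its 61 cells among 374, was at 16.02 CPM with a share of 8.82%. With the mean of the cells' CPM, DN was at 303.8 CPM, DP-P at 276.8 CPM and the ratio 1.10. With totals that leave out mitochondrial, ribosomal protein and haemoglobin genes, the values were 400.4 CPM, 366.2 CPM and 1.09. Thinning to 1000 UMIs gave shares of 25.4% in DN, 23.3% in DP-P and 7.47% in TEC:mTEC2, and thinning to 3000 UMIs gave 56.1%, 52.5% and 15.3%, by the lower depth itself. TEC:mTEC2 was at 47.1 CPM in cells with fewer than 3 UMIs of the 9 thymocyte genes and at 46.9 CPM without the cell with most Ptcra UMIs, which both leave that cell out. Without the 2 epithelial cells with most Ptcra UMIs, cells with at least 10 Aire UMIs were at 50.5 CPM, TEC:mTEC-prol at 8.96 CPM with 44.4 Ptcra UMIs per 100 of the 9 genes, and TEC:mTEC2 cells with Aire at 55.8 CPM. Without Ptprc among the 9 genes, it held 0.845 Ptcra UMIs per UMI of the remaining 8. Genes past the limit between DN and DP-P numbered 966, against 594 at a minimum of 50 UMIs and 269 at 3-fold. Between TEC:mTEC2 cells with and without Ptcra they numbered 1744, against 621 and 821. For the other moved values the cause was not tested. The settings without the highest cells, without CD3 UMIs and with TEC-d were chosen after seeing the data.

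The TEC:mTEC2 results rest on 60 UMIs in 23 cells of 1 library, and 20 of the UMIs lie in 1 cell. No difference could be checked over animals, and single UMIs per cell limit what can be said of any 1 cell.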

Other observations

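One cell labelled B+myeloid in the thymocyte library, chosen after its values were seen, held 4 Ptcra UMIs beside 265 epithelial UMIs, 9 of Epcam, 9 of Aire and 912 of class II, with 1 UMI of the 9 thymocyte genes. Its barcode is not among those shared with the stromal library. The 2 other cells of that label with at least 50 epithelial UMIs held no Ptcra.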
